A study of Mus musculus with 28 samples.

Results

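Polyamine metabolism was examined through 9 of the 53801 features in the table: Odc1, Oaz1, Oaz2, Azin1, Amd1, Srm, Sms, Sat1 and Myc. All 9 were found by symbol. Odc1 was selected on its higher level in GBM Treg cells after αPD1 + αGITR. The other 8 genes were taken for what they are known to do around it. The GBM libraries chose Odc1, so its group differences that involve them are described without a test. A group difference of Odc1 was tested only between the splenic groups. Its correlations with the other members were tested over all 27 libraries used, after the group means were taken off.

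Treg cells, CD4+ T cells that restrain other immune cells, had been sorted as TCR+ CD4+ CD25hi CD127lo cells from mice carrying CT2A, a murine glioblastoma (GBM) line grown in the brain. Each mouse received 4 doses of 250 µg, given every 3 days, once its tumor had reached 2 mm3, and tissue was taken 2 days after the last dose. The control groups received IgG2a, and the treated groups received αPD1, which blocks the PD1 checkpoint receptor, together with αGITR, which engages the co-stimulatory receptor GITR. Because the antibodies were given together, their effects cannot be told apart. Bulk Smart-Seq2 libraries were described for the spleen (7 after IgG2a and 9 after αPD1 + αGITR) and for the tumor (5 after IgG2a and 7 after αPD1 + αGITR). Of these 27 were used, and treated library spleen_72_a, to which no named column was matched, was not analysed here, which leaves 8 treated splenic libraries. The series description has every spleen or tumor sample from its own mouse. The study's text on this experiment gives fewer animals than there are splenic libraries. Some labels share a number, in spleen (such as spleen_79_a to spleen_79_d) and in treated tumor (tumor_70_a and tumor_70_b, tumor_73_a and tumor_73_b). Where libraries share an animal, the p-values and standard errors of the comparisons that use them are too small. Splenic Treg cells also came from tumor-bearing mice, so no group shows Treg cells of a tumor-free animal. No number in the sample labels occurs under both treatments, so a difference between the sets of numbers cannot be told apart from that of treatment. Each treatment holds several numbers, so differences among numbers within a treatment are not bound to treatment. Levels are given as TPM, which is scaled for transcript length and to the same total in every library. The 10 most abundant features held from 31.9% (spleen_79_b) to 78.3% (spleen_79_a) of that total, so the share left for other genes was uneven. In bulk RNA, fewer cells with a transcript and less transcript per cell cannot be told apart.

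Polyamines (putrescine, spermidine and spermine) are small, positively charged molecules that bind nucleic acids and that proliferating cells, activated T cells among them, need for growth and translation. Ornithine decarboxylase, encoded by Odc1, makes putrescine and is the rate-limiting enzyme of the pathway. S-adenosylmethionine decarboxylase (Amd1) supplies the aminopropyl groups that spermidine synthase (Srm) and spermine synthase (Sms) add. Antizymes (Oaz1, Oaz2) bind ornithine decarboxylase and send it to the proteasome, the antizyme inhibitor Azin1 binds antizyme in its place, and spermidine/spermine acetyltransferase (Sat1) starts polyamine breakdown and export. Myc is a transcription factor for which Odc1 is a textbook target gene. Much of this pathway is controlled after transcription, which RNA levels do not show.

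The control sequences that polyamines act on lie in the members' own transcripts. Antizyme is made only when ribosomes shift by a base at the stop codon of a first reading frame, a step that polyamines favor. The 30 bases around this site are shown for both antizyme genes, because their RNA levels do not report how often the shift occurs. Both were read from GENCODE transcripts on the plus strand of GRCm38, the Oaz1 site at chr10:80828280-80828309 and the Oaz2 site at chr9:65686257-65686286, within coding sequence. Capitals mark the last codon of the first frame and its stop codon.
Oaz1: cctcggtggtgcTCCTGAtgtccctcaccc
Oaz2: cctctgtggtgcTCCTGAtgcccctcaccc
The annotation skips the base at position 80828295 of chromosome 10 and at position 65686272 of chromosome 9 to join the frames. The windows share 28 of 30 bases. Amd1 carries a short upstream reading frame in its 5′ UTR, through which polyamines are known to hold back translation of the enzyme. It was read from the RefSeq promoter window on the minus strand of GRCm38.p6 at chr10:40302155-40302175, is 21 bases long, and has its start and stop codons in capitals.
Amd1: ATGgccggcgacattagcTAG

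Odc1 was the member with the large difference, at its highest in treated GBM Treg cells. The gene lies on chromosome 12 from 17544794 to 17551505 (GRCm38, plus strand). After IgG2a it was listed at 15.5 ± 8.31 TPM (SD, n = 7) in splenic and 53.4 ± 42.6 TPM (SD, n = 5) in GBM Treg cells. After αPD1 + αGITR it was listed at 19.7 ± 26.4 TPM (SD, n = 8) in splenic and 229 ± 101 TPM (SD, n = 7) in GBM Treg cells. Treated GBM Treg cells were highest, IgG2a GBM Treg cells were next with 2 of 5 libraries inside the splenic IgG2a range, and the splenic groups did not differ beyond their spread.

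The 5 IgG2a libraries from GBM held 25.0, 25.9, 42.4, 46.1 and 128 TPM of Odc1. The 7 treated GBM libraries ran from 119 TPM through a median of 195 TPM to 399.8 TPM. Of these, 6 lay above every IgG2a library, and the remaining treated library (replicate tumor_70_b) lay below IgG2a replicate tumor_77_a alone. The median level was 4.60 times as high after treatment and the mean level 4.30 times as high. On the log2(TPM + 1) scale the difference was 2.24 (standard error 0.48), and of the 7848 genes fitted 298 had a larger rise, or 3.797%. Leaving out IgG2a replicate tumor_77_a, the difference was 2.62, and over the libraries left out in turn it ran from 2.05 to 2.62. These are the values for which Odc1 was chosen.

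**Figure D1:**
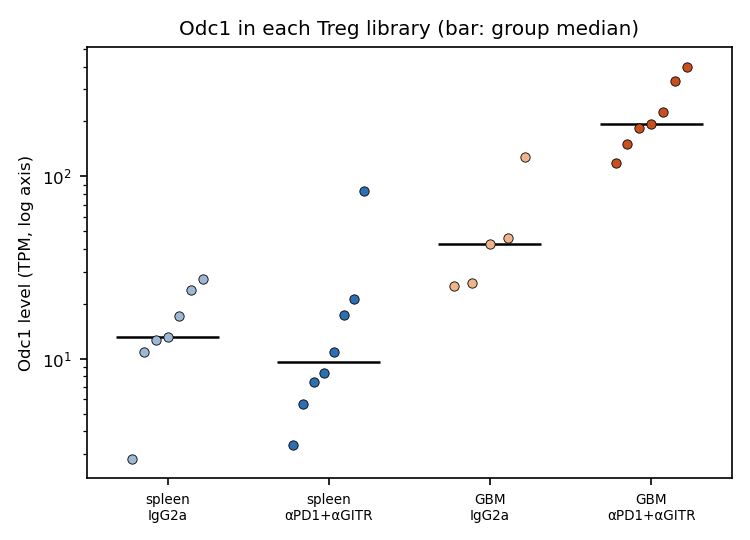
Odc1 level in TPM (log axis) in each of 27 Treg libraries, by tissue and treatment, with a bar at the group median. The treated GBM libraries lie between 119 and 399.8 TPM, and the median of splenic libraries is 13.2 TPM after IgG2a and 9.63 TPM after αPD1 + αGITR.

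In the spleen Odc1 did not change detectably with treatment. Splenic libraries ran from 2.83 through a median of 13.2 to 27.5 TPM after IgG2a, and from 3.36 through a median of 9.63 to 83.5 TPM after αPD1 + αGITR. The groups overlapped, with treated replicate spleen_73_a (83.5 TPM) above and IgG2a replicate spleen_77_a (2.83 TPM) below every library of the other group, while the next highest treated library held 21.2 TPM. The log2 fold change was -0.10 (limma, 95% interval -1.54 to 1.34, adjusted p = 0.99971; exact permutation test, p = 0.876). Leaving out replicate spleen_73_a gave -0.48. The interaction of tissue and treatment, the difference between these contrasts, was 2.34 for Odc1 (standard error 0.88) and was not tested, because it contains the GBM values.

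All 7 treated GBM libraries held more Odc1 than any treated splenic library, a log2 difference of 4.01 (standard error 0.56). Only 24 of the 7506 genes fitted between these groups, or 0.320%, had a larger rise. After IgG2a, 3 of 5 GBM libraries exceeded the highest splenic library, and the log2 difference was 1.67 (standard error 0.79). Over the alternative settings and libraries left out, that difference ran from 1.08 with quantile normalization to 2.01 with library weights. GBM and splenic comparisons share their groups with the treatment comparisons, so these values are not independent of those above.

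The scale itself differed between the groups. Over all genes fitted, the median difference on the log2 scale was 0.62 after treatment in GBM, 0.15 in spleen, 0.48 between tissues after IgG2a and 0.95 between tissues after αPD1 + αGITR. Trimmed-mean (TMM-type) scaling moved these medians to 0.054, -0.0097, 0.20 and 0.22. The split of genes that met an unadjusted p under 0.05 with a change of more than 2-fold moved with it, from 1318 higher and 382 lower to 479 and 611 after treatment in GBM, from 99 and 69 to 97 and 136 in spleen, from 563 and 170 to 438 and 390 between tissues after IgG2a, and from 2546 and 474 to 905 and 898 after αPD1 + αGITR. On that scale the log2 difference of Odc1 was 1.55 after treatment in GBM, -0.29 in spleen, 1.36 between tissues after IgG2a and 3.20 between tissues after αPD1 + αGITR. Values for the other members are given below on the deposited scale. Where TMM-type scaling changed their sign, or for Srm and Sms their size, its value stands beside them. It moved others by over 1.5 times without a change of sign. With treatment in GBM Oaz2 went from 1.03 to 0.43 and Amd1 from -0.90 to -1.56, and in spleen Oaz1 went from 0.34 to 0.13, Azin1 from 0.18 to 0.12, Sat1 from 0.594 to 0.396 and Myc from -0.29 to -0.50. Between tissues after IgG2a Oaz2 went from 0.73 to 0.37, Azin1 from 0.70 to 0.33 and Sat1 from 0.68 to 0.37, and after αPD1 + αGITR Oaz1 went from 0.87 to 0.028, Oaz2 from 1.02 to 0.23, Azin1 from 1.44 to 0.84 and Myc from -0.51 to -1.34.

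The 171 bases upstream of Odc1 are shown because Myc binds the motif CACGTG (the E-box) in target genes. They run from the start of the RefSeq window to the base before the annotated gene, at chr12:17544623-17544793 on the plus strand of GRCm38.p6. Capitals mark GC boxes (GGGCGG, or CCGCCC on the other strand), the motif bound by Sp1 and its relatives.
Odc1: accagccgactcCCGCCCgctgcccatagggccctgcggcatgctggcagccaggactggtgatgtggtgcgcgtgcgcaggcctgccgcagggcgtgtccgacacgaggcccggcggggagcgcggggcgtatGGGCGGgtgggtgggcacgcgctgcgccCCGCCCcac
The whole window of 300 bases, from 250 before to 50 after the RefSeq start, held 4 GC boxes and no CACGTG. Sequence outside this window, the rest of the gene included, was not searched, so CACGTG may occur there. A GC box occurred in 35.7% and CACGTG in 7.15% of all 32851 windows of this length, searched on both strands. Windows were found for 6 of the 9 members (Odc1, Oaz1, Oaz2, Amd1, Sat1 and Sms), and among their 7 windows CACGTG occurred in 1, that of the upstream start of Sms. These matches describe the letters of the windows and say nothing of binding.

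None of the other 8 members differed between groups at an adjusted p under 0.05, nor at an unadjusted p under 0.05, in any of the 4 comparisons (limma on log2(TPM + 1)). The share of all genes that passed sets the scale for these counts. In GBM, 0% of 7848 genes passed the adjusted threshold between αPD1 + αGITR and IgG2a, and 21.7% had an unadjusted p under 0.05 with a change of more than 2-fold, the study's rule for differentially expressed genes. Of the 8 members tested there, 0 met either rule. In spleen 0% of 6634 genes passed the adjusted threshold and 2.53% met the study's rule, and of the 9 members 0 met either. Between GBM and spleen after IgG2a, 0.569% and 9.93% of 7380 genes did so, and 0 of 8 members. After αPD1 + αGITR, 17.5% and 40.2% of 7506 genes did so, and 0 of the 7 members tested. Amd1 was below the filter there, with a mean TPM under 10 in both groups. Among the 8687 genes of the interaction of tissue and treatment, 0% and 12.2% passed, and 0 of 8 members. With 5 to 8 libraries a group the intervals were wide, so a change of 2-fold was inside the interval for most members. The plot of fold changes shows them all.

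**Figure D2:**
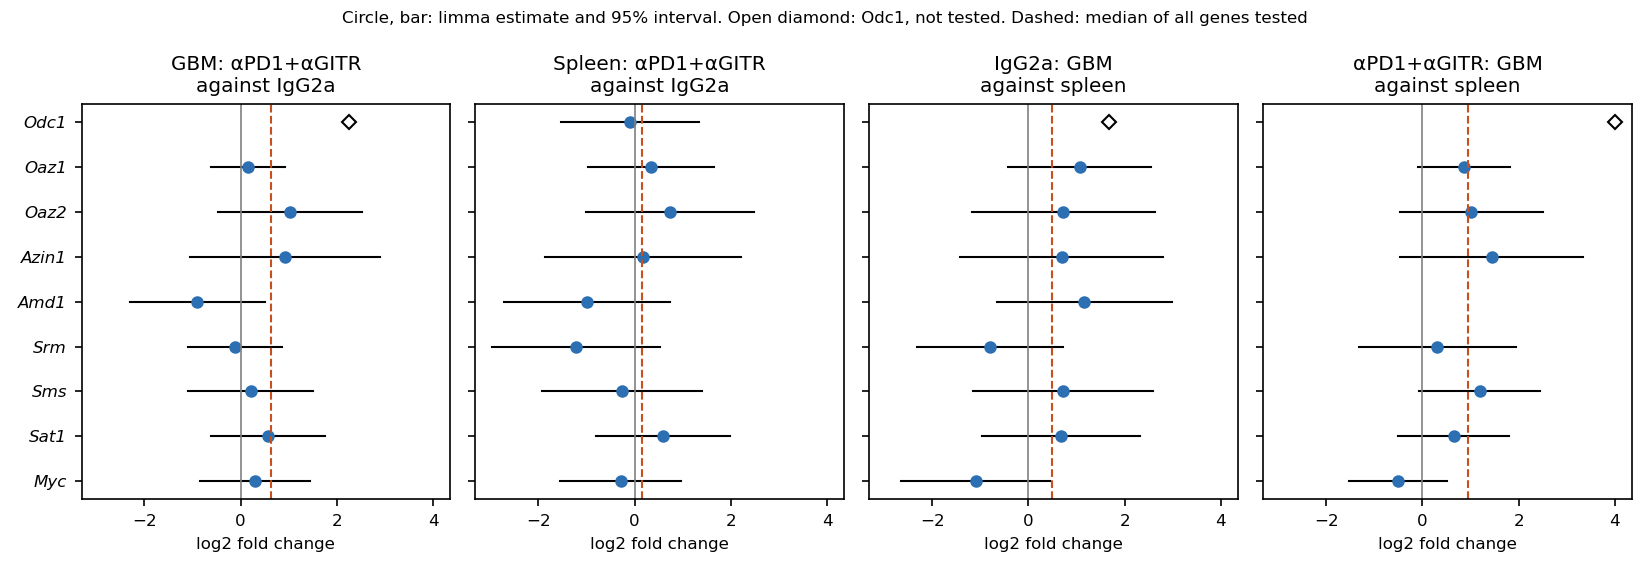
Log2 fold change of each member in the 4 comparisons, with limma's 95% interval (circles) and the median of all genes tested (dashed). Odc1 is an untested diamond where GBM libraries enter, at 2.24, 1.67 and 4.01, and every interval drawn for a tested member crosses 0.

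Among the enzymes that carry putrescine on to spermine, Srm was the most abundant in every group, with lower means in GBM than in spleen. Srm, which turns putrescine into spermidine, lies on chromosome 4 from 148591503 to 148594993. It was listed at 148 ± 88.5 TPM (n = 7) in spleen and 78.4 ± 45.1 TPM (n = 5) in GBM after IgG2a, and at 92.7 ± 66.0 TPM (n = 8) and 66.6 ± 18.6 TPM (n = 7) after αPD1 + αGITR. In GBM the IgG2a libraries held 38.2, 46.0, 72.1, 83.9 and 152 TPM, and the treated ones ran from 42.9 through a median of 72.1 to 88.9 TPM. These groups overlapped fully, with a log2 fold change of -0.11 (limma, 95% interval -1.09 to 0.86, adjusted p = 0.892). Without IgG2a replicate tumor_79_a it was 0.17, and with TMM-type scaling -0.80.

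Srm in the spleen was uneven after treatment. Its 8 treated libraries ran from 0 through a median of 73.2 to 186 TPM, and replicate spleen_72_b was the library listed at 0. The 7 IgG2a libraries ran from 41.0 through a median of 136 to 255 TPM. The log2 fold change of -1.22 (limma, standard error 0.85, adjusted p = 0.99971) was -0.40 without replicate spleen_72_b. Between the tissues the log2 fold change was -0.80 after IgG2a (limma, 95% interval -2.31 to 0.71, adjusted p = 0.693). It was 0.31 after αPD1 + αGITR (limma, adjusted p = 0.762), and -0.51 without replicate spleen_72_b. With TMM-type scaling that last comparison gave -0.36.

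Sms, which makes spermine from spermidine, was a low transcript at 12.7 ± 10.9 TPM (n = 7) in spleen and 18.3 ± 16.5 TPM (n = 5) in GBM after IgG2a. After αPD1 + αGITR it was listed at 10.3 ± 11.2 TPM (n = 8) in spleen and 17.2 ± 8.18 TPM (n = 7) in GBM. In GBM the treated libraries ran from 8.52 through a median of 16.8 to 34.1 TPM, and the IgG2a libraries held 5.52, 7.23, 9.98, 23.8 and 44.8 TPM. All treated values lay inside the range of the IgG2a ones (log2 fold change 0.21, limma, adjusted p = 0.847), and TMM-type scaling gave -0.46. Its lowest p was between the tissues after αPD1 + αGITR, where the log2 fold change was 1.19 (limma, 95% interval -0.08 to 2.45, unadjusted p = 0.0641, adjusted p = 0.144; exact permutation test, p = 0.0584). The median of all genes was 0.95, and Sms was at 0.44 with TMM-type scaling and 0.14 with quantile normalization. There 1 of 7 GBM libraries exceeded the highest splenic library. A processed copy, Sms.ps, was listed at 14.0 TPM on average in treated GBM libraries, so the reads of Sms are uncertain.

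Amd1, on chromosome 10 from 40287458 to 40302186, had lower means than Odc1, Srm and Sms in both treated groups. In GBM the IgG2a libraries held 5.65, 8.33, 11.8, 35.1 and 78.4 TPM, and the treated ones ran from 3.67 through a median of 10.4 to 13.1 TPM. The groups overlapped, and the difference in means, 27.9 ± 30.6 TPM against 9.54 ± 3.16 TPM, rested on IgG2a replicates tumor_369_a and tumor_79_a. The log2 fold change was -0.90 (limma, 95% interval -2.30 to 0.50, adjusted p = 0.414), and -0.38 without replicate tumor_369_a, the library with the fewest genes above 1 TPM. In spleen the treated libraries ran from 0 through 2.08 to 22.3 TPM and the IgG2a ones from 1.55 through 8.53 to 32.9 TPM. Here 4 of 8 treated libraries lay below every IgG2a library, without passing a test (log2 fold change -0.99, limma, adjusted p = 0.99971; exact permutation test, p = 0.241). Between the tissues the difference was 1.16 after IgG2a (limma, adjusted p = 0.656; 0.64 without replicate tumor_369_a) and 1.25 after αPD1 + αGITR (exact permutation test, p = 0.0960). Over the alternative settings and libraries left out, the tissue difference after IgG2a ran from 0.12 (quantile normalization) to 1.53 (without replicate tumor_76_a). The change with treatment in GBM ran from -1.56 (TMM-type scaling) to -0.13 (library weights). The copy Amd.ps3 was listed at 25.6 TPM on average in IgG2a GBM libraries, so reads of Amd1 are uncertain.

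The antizyme Oaz1 was the most abundant member in every group and had rank 46 of all features by mean TPM. It lies on chromosome 10 from 80826656 to 80829290. Its level was 680 ± 503 TPM (n = 7) in spleen and 1222 ± 618 TPM (n = 5) in GBM after IgG2a, and 798 ± 418 TPM (n = 8) and 1311 ± 494 TPM (n = 7) after αPD1 + αGITR. The 5 IgG2a libraries from GBM held 612, 726, 1259, 1347 and 2167 TPM, and the treated ones ran from 682 through a median of 1518 to 2035 TPM. Every treated library fell within the IgG2a range. It differed on the log2 scale by 0.15 (limma, 95% interval -0.62 to 0.92, adjusted p = 0.811), and -0.55 with TMM-type scaling. In spleen it was 0.34 (limma, adjusted p = 0.99971). Between the tissues it was 1.06 after IgG2a (limma, adjusted p = 0.632) and 0.87 after αPD1 + αGITR (limma, unadjusted p = 0.0722, adjusted p = 0.156; exact permutation test, p = 0.0556). In the last comparison 4 of 7 GBM libraries exceeded the highest splenic one, while the median of all genes was 0.95 and the TMM-type value of Oaz1 was 0.03. Without replicate spleen_72_b Oaz1 differed there by 0.57.

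Oaz2, the second antizyme, on chromosome 9 from 65668001 to 65690300, was far lower than Oaz1. It was listed at 28.5 ± 19.3 TPM (n = 7) in spleen and 51.7 ± 32.7 TPM (n = 5) in GBM after IgG2a, and at 62.3 ± 63.2 TPM (n = 8) and 72.1 ± 24.6 TPM (n = 7) after αPD1 + αGITR. In GBM the IgG2a libraries held 1.65, 39.4, 62.2, 68.9 and 86.6 TPM, and the treated ones ran from 25.4 through a median of 75.97 to 95.97 TPM. The treated range began above the lowest IgG2a library, replicate tumor_369_a, and 2 treated libraries lay above every IgG2a one. The log2 fold change of 1.03 (limma, 95% interval -0.47 to 2.53, adjusted p = 0.382) was 0.12 without replicate tumor_369_a. In spleen the log2 fold change was 0.74 (limma, adjusted p = 0.99971) over treated libraries from 1.14 to 160.25 TPM. Between the tissues it was 0.73 after IgG2a and 1.02 after αPD1 + αGITR (limma, adjusted p = 0.770 and 0.269). With a library left out, these ran from 0.29 (without spleen_77_a) to 1.64 (without tumor_369_a) and from 0.45 (without spleen_72_c) to 1.34 (without spleen_70_c), and the splenic value from 0.30 to 1.30.

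Azin1, the antizyme inhibitor, on chromosome 15 from 38487427 to 38519266, varied more between libraries of a group than any other member in 3 of the 4 groups. Its coefficient of variation (SD over mean) ran from 76.8% to 155% in the 4 groups. In GBM the IgG2a libraries held 0.07, 2.17, 6.60, 17.7 and 76.7 TPM, and the treated ones ran from 2.46 through a median of 17.1 to 41.8 TPM. The IgG2a libraries span the whole treated range, with a log2 fold change of 0.93 (limma, 95% interval -1.05 to 2.90, adjusted p = 0.540). Without replicate tumor_79_a, the highest IgG2a library, it was 1.74, and without replicate tumor_369_a, the lowest, it was 0.19. In spleen the IgG2a libraries ran from 0.30 through 4.39 to 21.8 TPM and the treated ones from 0 through 2.75 to 49.6 TPM. There 3 treated libraries lay above and 2 below every IgG2a library, and the log2 fold change was 0.18 (limma, adjusted p = 0.99971). Between the tissues it was 0.70 after IgG2a and 1.44 after αPD1 + αGITR (limma, adjusted p = 0.802 and 0.226), and with a library left out it ran from 0.37 to 1.43 and from 1.08 to 1.89.

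Sat1, which acetylates spermidine and spermine, lies on chromosome X from 155213132 to 155216449. Its level was 29.9 ± 18.03 TPM (n = 7) in spleen and 55.0 ± 55.1 TPM (n = 5) in GBM after IgG2a, and 52.0 ± 43.3 TPM (n = 8) and 64.0 ± 24.3 TPM (n = 7) after αPD1 + αGITR. Among GBM libraries, those after IgG2a held 14.7, 26.2, 32.4, 50.9 and 151 TPM, and the treated ones ran from 27.1 through a median of 68.5 to 90.7 TPM. The treated median was above 4 of the 5 IgG2a libraries, and the IgG2a library at 151 TPM was replicate tumor_79_a. The log2 fold change was 0.56 (limma, 95% interval -0.62 to 1.75, adjusted p = 0.535), 1.04 without that replicate and -0.11 with TMM-type scaling. In spleen 4 of 8 treated libraries lay above every IgG2a one (log2 fold change 0.59, limma, adjusted p = 0.99971; exact permutation test, p = 0.351). Between the tissues it was 0.68 and 0.65 after IgG2a and αPD1 + αGITR (limma, adjusted p = 0.752 and 0.366), and the second value was -0.17 with TMM-type scaling. With a library left out, these ran from 0.20 to 1.02 and from 0.42 to 0.91, the splenic value from 0.26 to 0.82 and the GBM value from 0.22 to 1.04.

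Replicate tumor_79_a of the GBM IgG2a group also carried macrophage and microglia transcripts. The summed level of 15 macrophage and microglia markers was 4963 TPM there, against a group median of 138 TPM and a lowest library of 55.2 TPM. In treated GBM libraries the sum ran from 26.9 to 1897 TPM with a median of 106 TPM, and the highest was replicate tumor_73_a, the library with the most Odc1. Replicate tumor_79_a was the highest IgG2a GBM library for Azin1, Srm, Sms and Sat1, and held 25.9 TPM of Odc1. Splenic libraries had sums of 18.4 to 285 TPM, and the highest was treated replicate spleen_73_a, the splenic library with the most Odc1 (83.5 TPM). None of the 15 markers was at 0 in all libraries of a group. With the library highest in these markers left out of each group, a setting chosen after seeing the data, the log2 difference of Odc1 in GBM was 1.91, beside 2.24 with all libraries. Without those libraries the log2 fold change with treatment in GBM was 1.496 for Azin1 (0.93 with all), 0.94 for Sat1 (0.56), 0.60 for Sms (0.21), 0.19 for Srm (-0.11), -0.0886 for Myc (0.30), 0.0773 for Oaz1 (0.15), 1.08 for Oaz2 (1.03) and -0.72 for Amd1 (-0.90), and none passed an unadjusted p of 0.05 (limma). Erythroid markers (6 genes) summed to a median of 1573 TPM and 6883.5 TPM in the splenic groups and 49.9 TPM and 17.65 TPM in the GBM groups, after IgG2a and αPD1 + αGITR. The 10 Treg markers were detected in each group, with median sums of 730 TPM and 750.0 TPM in spleen and 1620 TPM and 2428 TPM in GBM. Libraries had between 7702 and 17460 genes above 1 TPM.

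**Figure D3:**
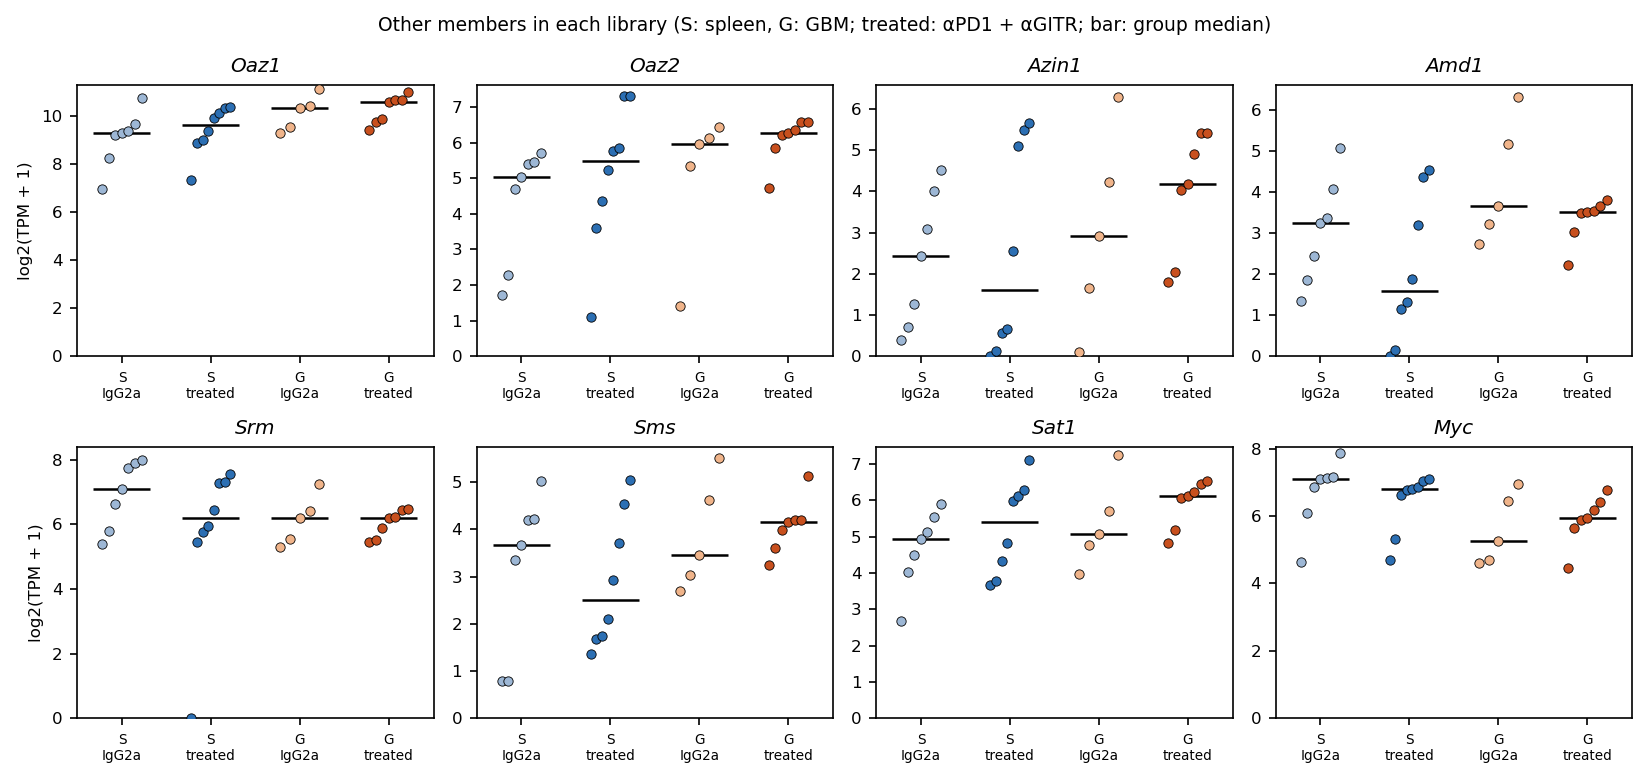
Level of the other 8 members as log2(TPM + 1) in each library, with a bar at the group median. Points of treated (αPD1 + αGITR) and IgG2a libraries overlap within each tissue for every gene, and the lone point at 0 for Srm is splenic treated replicate spleen_72_b.

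Myc overlapped between treated and IgG2a libraries in both tissues. The gene lies on chromosome 15 from 61985391 to 61990374. It was listed at 123 ± 66.4 TPM (n = 7) in spleen and 58.9 ± 43.8 TPM (n = 5) in GBM after IgG2a, and at 95.01 ± 40.7 TPM (n = 8) and 64.4 ± 27.4 TPM (n = 7) after αPD1 + αGITR. After IgG2a the GBM libraries held 23.4, 25.1, 37.0, 86.6 and 122 TPM, and the treated ones ran from 20.9 through a median of 60.3 to 107 TPM. The groups overlapped, with a log2 fold change of 0.30 (limma, 95% interval -0.85 to 1.45, adjusted p = 0.745) and -0.39 with TMM-type scaling. It was 0.056 without replicate tumor_79_a and 0.64 without replicate tumor_78_a. In spleen the log2 fold change was -0.29 (limma, adjusted p = 0.99971), and from -0.64 to -0.048 with a library left out.

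Between the tissues Myc was lower in GBM by mean and median, without passing the threshold. Splenic IgG2a libraries ran from 23.6 through a median of 137 to 235 TPM, and the GBM values above lay below that median in each of the 5 libraries. On the log2 scale Myc differed by -1.10 after IgG2a (limma, 95% interval -2.65 to 0.46, adjusted p = 0.632; exact permutation test, p = 0.116). After αPD1 + αGITR it was -0.51 (limma, adjusted p = 0.426; exact permutation test, p = 0.252). Myc was the only member whose sign was opposite to the median of all genes in both tissue comparisons, and it grew when that median was scaled towards 0. With TMM-type scaling it was -1.40 (limma, unadjusted p = 0.0672) and -1.34 (limma, unadjusted p = 0.00787, adjusted p = 0.0679). Over the alternative settings its adjusted p ran from 0.202 to 0.834 after IgG2a and from 0.0679 to 0.684 after αPD1 + αGITR. With a library left out, the log2 difference ran from -1.44 to -0.85 and from -0.75 to -0.27.

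Ratios within a library remove the scaling of that library. Relative to Srm, Odc1 was higher in all 7 treated GBM libraries than in any of the 5 IgG2a ones. Ratios with Odc1 in GBM contain the values for which Odc1 was chosen, so they were not tested there. The mean log2 ratio of Odc1 to Srm was 1.71 ± 0.83 (SD, n = 7) in treated and -0.65 ± 1.19 (SD, n = 5) in IgG2a GBM Treg cells. In spleen it was -1.99 ± 2.08 (n = 8) and -3.11 ± 1.21 (n = 7). Odc1 thus had a higher TPM level than Srm on average only in the treated GBM group. Relative to its antizyme Oaz1, Odc1 had a mean log2 ratio of -2.53 ± 0.68 (n = 7) in treated GBM, -4.62 ± 1.51 (n = 5) in IgG2a GBM, -5.66 ± 1.25 (n = 8) in treated splenic and -5.22 ± 1.40 (n = 7) in IgG2a splenic Treg cells. For the ratio to Oaz1 all 7 treated GBM libraries lay above every treated splenic one, and 4 of 7 above every IgG2a GBM one. For the ratio to Srm, 2 of 7 treated GBM libraries lay above every treated splenic one. The highest treated splenic library there was replicate spleen_72_b (log2 ratio 2.12), where Srm was listed at 0. In spleen neither ratio passed a test with treatment (exact permutation test, p = 0.239 for Srm and 0.521 for Oaz1).

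**Figure D4:**
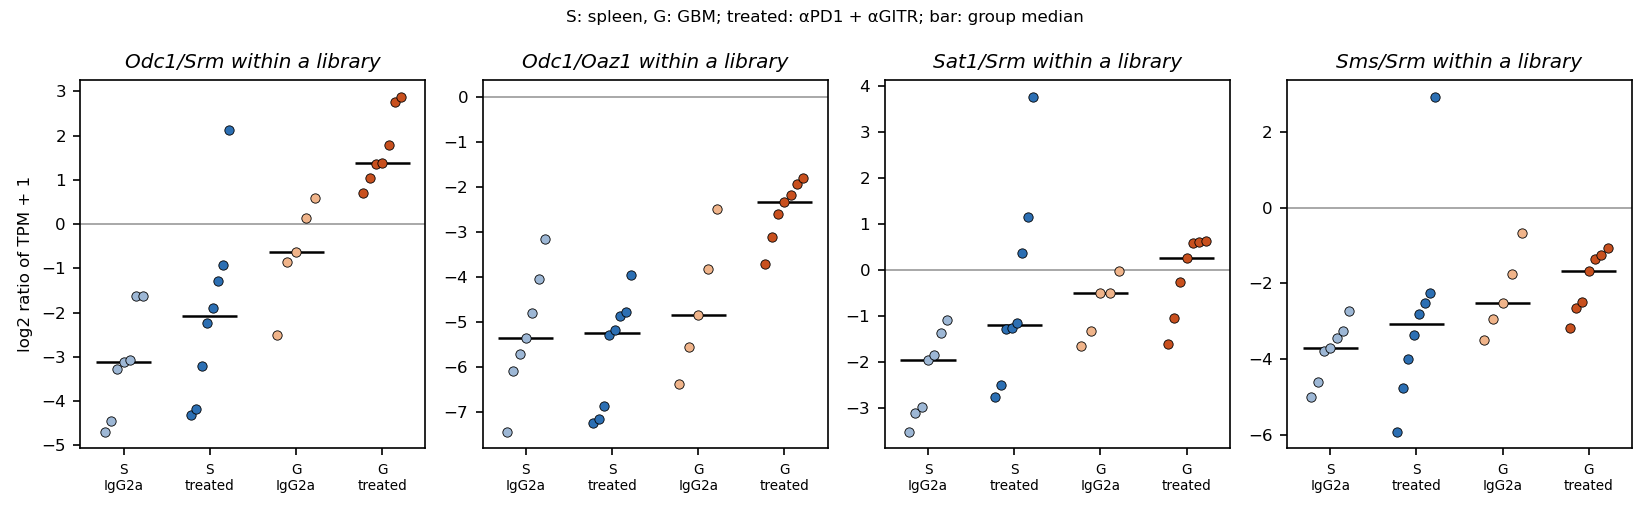
Log2 ratio of TPM + 1 of 2 genes within each library, with a bar at the group median. The Odc1/Srm ratio is above 0 in every treated GBM library, and the highest splenic point of each Srm ratio is treated replicate spleen_72_b, where Srm was listed at 0.

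The ratios without Odc1 could be tested in all comparisons. The RNA ratio of Sat1, a breakdown gene, to Srm, a synthesis gene, was lowest in IgG2a splenic Treg cells. Its mean log2 value there was -2.27 ± 0.94 (n = 7). It stood at -0.79 ± 0.67 (n = 5) in IgG2a GBM, -0.46 ± 2.15 (n = 8) in treated splenic and -0.12 ± 0.90 (n = 7) in treated GBM Treg cells. The difference between GBM and spleen after IgG2a was 1.48 (exact permutation test, p = 0.0152, adjusted over 14 ratio tests p = 0.159), and 3 of 5 GBM libraries exceeded the highest splenic one. The difference with treatment in spleen was 1.81 (exact permutation test, p = 0.0448, adjusted p = 0.209) and 1.21 without replicate spleen_72_b. Sms relative to Srm was higher in GBM than in spleen after IgG2a by 1.52 (exact permutation test, p = 0.0227, adjusted p = 0.159). Azin1 relative to Oaz1 differed by 0.78 with treatment in GBM (exact permutation test, p = 0.525) and by at most that size elsewhere. None of the 14 ratio tests passed an adjusted p of 0.05.

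Within groups Odc1 did not track the other members closely. Over the deviations of 27 libraries from their group means on the log2 scale, Pearson's r with Odc1 ran from -0.18 for Sat1 (rho -0.22, permutation p = 0.457 for r and 0.306 for rho) to 0.45 for Azin1. For Azin1 the permutation p was 0.0400 (Spearman's rho 0.38, p = 0.0749), and 0.320 for r and 0.599 for rho when adjusted over the 8 relations. Without the 2 libraries farthest from the Odc1 median (replicates spleen_73_a and spleen_77_a) r with Azin1 was 0.31, and with TMM-type scaling of all 27 it was 0.23. Within groups it was 0.77 in IgG2a spleen (n = 7), 0.62 in treated spleen (n = 8) and -0.20 in treated GBM (n = 7), and the IgG2a GBM group was too small. For Myc r was 0.16 (rho 0.11) and for Srm 0.37 (rho 0.16), with permutation p of 0.447 and 0.157 for r and 0.597 and 0.452 for rho. With TMM-type scaling r was 0.40 for Myc, -0.44 for Sat1 and 0.11 for Oaz2, which was at 0.28 on the deposited scale. On the deposited scale the middle 90% of all 8686 genes had r between -0.35 and 0.38. The 5 genes with the highest r with Odc1 over the same 27 deviations were Pink1 (0.72), Gm44344 (0.68), Hist1h3i (0.64), Urod (0.64) and Aspm (0.64). They are the top of 8686 values from libraries scaled to a common total, and are listed as a description.

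Other genes of the pathway were taken from lists written from general knowledge. Of 8 genes of polyamine acetylation, oxidation and transport, 4 were tested in GBM, with a median log2 fold change of 0.62 after treatment, the same as that of all genes, and -0.03 with TMM-type scaling. Smox, the oxidase that converts spermine back to spermidine, met the study's rule there, with 28.1 ± 15.8 TPM (n = 7) after αPD1 + αGITR and 12.1 ± 14.5 TPM (n = 5) after IgG2a (log2 fold change 1.92, limma, adjusted p = 0.189), beside 21.7% of all genes. Its value was 1.25 without replicate tumor_79_a, 1.22 with TMM-type scaling and 0.84 with library weights. Between treated GBM and treated splenic Treg cells Smox also met it (1.92, limma, adjusted p = 0.0585), beside 40.2% of all genes, with 1.14 under TMM-type scaling and 0.80 under quantile normalization. No gene of this list passed the adjusted threshold in any comparison, and in spleen and between tissues after IgG2a 0 had an unadjusted p under 0.05 (limma), beside 2.53% and 9.93% of all genes. Oaz3 and Azin2, the other antizyme and inhibitor genes, and Amd2 were below the filter in all comparisons.

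Spermidine is the substrate for hypusination, the modification that activates the translation factor eIF5A. Eif5a itself was listed at 769 ± 170 TPM (n = 7) in treated and 473 ± 119 TPM (n = 5) in IgG2a GBM Treg cells. This was a log2 fold change of 0.72 (limma, unadjusted p = 0.0384, adjusted p = 0.205), close to the median of all genes, and 0.02 with TMM-type scaling. Dhps, the enzyme of the first step, was lower in GBM than in spleen after IgG2a by the study's rule (29.1 ± 17.2 TPM, n = 5, against 98.0 ± 74.9 TPM, n = 7; log2 fold change -2.01, limma, adjusted p = 0.437; -1.02 without replicate tumor_369_a), beside 9.93% of all genes. Of the 4 genes in this list 3 were tested in each comparison, and 0 passed the adjusted threshold, beside 0% of all genes with treatment in GBM and in spleen, 0.569% between tissues after IgG2a and 17.5% after αPD1 + αGITR.

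Ornithine is made from arginine or through the urea cycle and proline routes. Of 11 genes of ornithine and arginine supply, 4 were tested between treated GBM and treated splenic Treg cells. Of these, 3 met the study's rule and 1 passed the adjusted threshold, beside 40.2% and 17.5% of all genes. Asl, argininosuccinate lyase, was the gene that passed, at 37.2 ± 8.91 TPM (n = 7) in GBM and 15.05 ± 14.2 TPM (n = 8) in spleen (log2 fold change 1.98, limma, adjusted p = 0.0447). This call was lost in 22 of 28 alternative settings. After IgG2a, Asl was listed at 91.2 ± 117 TPM (n = 5) in GBM and 6.10 ± 8.70 TPM (n = 7) in spleen (3.86, limma, adjusted p = 0.0531). Ass1, the preceding enzyme, and Aldh18a1, of proline and ornithine synthesis, had log2 fold changes of 1.75 and 1.62 between the treated tissues (limma, adjusted p = 0.0821 and 0.0822). With TMM-type scaling these were 0.97 and 0.80, and with quantile normalization 1.04 and 0.77. With treatment in GBM 0 of the 5 genes tested had an unadjusted p under 0.05 (limma), beside 22.3% of all genes. Their median log2 fold change was -0.14, with -0.45 under TMM-type scaling and -0.58 under quantile normalization, beside 0.62, 0.054 and 0.13 for all genes. The 8 genes of the methionine cycle and salvage pathway, which feed Amd1, had medians (7 tested in spleen) of 0.52 with treatment in GBM, -0.40 in spleen, 0.0093 between tissues after IgG2a and 0.95 after αPD1 + αGITR, beside 0.62, 0.15, 0.48 and 0.95 for all genes. With TMM-type scaling they were -0.14, -0.60, -0.31 and 0.22, beside 0.054, -0.0097, 0.20 and 0.22, so the first and the third turned sign. Of these Mri1, a methionine salvage enzyme, met the study's rule downwards with treatment in spleen, at 87.8 ± 58.3 TPM (n = 8) against 218 ± 44.3 TPM (n = 7; log2 fold change -1.91, limma, adjusted p = 0.99971; -1.28 without replicate spleen_72_c), beside 2.53% of all genes. Between tissues after IgG2a the log2 fold change of Mri1 was -2.21 (limma, adjusted p = 0.367; -1.06 without replicate tumor_369_a). Mat2b, a regulatory subunit of methionine adenosyltransferase, had one of 1.29 between the treated tissues (limma, adjusted p = 0.0995; 0.49 with TMM-type scaling).

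The Myc network holds factors that share partners with Myc. Of its 12 genes, 8 were tested in GBM, where 3 met the study's rule, beside 21.7% of all genes, and 0 passed the adjusted threshold, beside 0%. Between the treated tissues 3 of 7 met the rule and 2 passed the adjusted threshold, beside 40.2% and 17.5% of all genes. Mxd1, whose protein competes with Myc for their partner Max, was listed at 182 ± 32.1 TPM (n = 7) after αPD1 + αGITR and 81.6 ± 46.0 TPM (n = 5) after IgG2a in GBM, and at 27.0 ± 23.8 TPM (n = 8) and 19.8 ± 22.5 TPM (n = 7) in spleen. Mxd1 had a log2 fold change of 1.67 with treatment in GBM (limma, adjusted p = 0.151; 0.85 without replicate tumor_79_a, 0.95 with TMM-type scaling and 0.80 without the macrophage-high libraries), 2.35 between tissues after IgG2a (limma, adjusted p = 0.377; 1.14 with the replicate block) and 3.23 between the treated tissues (limma, adjusted p = 0.00119). Mlxip, a glucose-sensing factor that binds Mlx, was listed at 62.5 ± 40.3 TPM (n = 7) after αPD1 + αGITR and 13.8 ± 17.0 TPM (n = 5) after IgG2a in GBM, and at 11.96 ± 19.96 TPM (n = 8) and 35.1 ± 20.5 TPM (n = 7) in spleen. Mlxip had a log2 fold change of 3.14 with treatment in GBM (limma, adjusted p = 0.0977), -2.08 in spleen (limma, adjusted p = 0.99971), -2.17 between tissues after IgG2a (limma, adjusted p = 0.422) and 3.04 between the treated tissues (limma, adjusted p = 0.00468). Mxd4, a relative of Mxd1, was listed at 37.5 ± 18.9 TPM (n = 7) after αPD1 + αGITR and 9.69 ± 9.18 TPM (n = 5) after IgG2a in GBM, a log2 fold change of 2.30 (limma, adjusted p = 0.104; 1.87 with TMM-type scaling). Between the treated tissues it was 1.51 (limma, adjusted p = 0.0905; 0.99 without replicate spleen_72_b and 0.85 with TMM-type scaling). The calls for Mxd1 and Mlxip between the treated tissues held in all 28 alternative settings. The interaction of tissue and treatment was 5.21 for Mlxip (limma, adjusted p = 0.136).

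Of 30 textbook Myc target genes, Odc1 apart, 25 were tested in GBM, and 23 had a positive log2 fold change with treatment. Their median was 0.70, beside 0.62 for all genes. With TMM-type scaling 15 of 25 were positive and the median was 0.058, beside 0.054 for all genes. In all 1 met the study's rule, beside 21.7% of all genes (Bop1, a ribosome assembly factor, 1.96, limma, adjusted p = 0.197; 1.22 without replicate tumor_79_a and 0.44 with library weights). Ccnd2 had a log2 fold change of 0.91 there (limma, adjusted p = 0.180; 0.21 with TMM-type scaling). In spleen 17 of 24 were negative with a median of -0.25, beside 0.15 for all genes, and 0 had an unadjusted p under 0.05 (limma), beside 2.53% of all genes. With TMM-type scaling 23 of 24 were negative there with a median of -0.42, beside -0.0097. Between the tissues the median was -0.29 after IgG2a, where that of all genes was 0.48, and 0.83 after αPD1 + αGITR, where that of all genes was 0.95. With TMM-type scaling these were -0.60 and 0.041, beside 0.20 and 0.22. In the last comparison 2 of 24 passed the adjusted threshold, beside 17.5% of all genes. They were Ldha, lactate dehydrogenase, at 650.2 ± 254 TPM (n = 7) in GBM and 176 ± 135 TPM (n = 8) in spleen (log2 fold change 2.32, limma, adjusted p = 0.00821), and Ccnd2, the cell cycle cyclin D2, at 400.3 ± 133 TPM and 136 ± 127 TPM (1.91, limma, adjusted p = 0.0165). The call was lost in 2 of 28 alternative settings for Ldha and in 3 of 28 for Ccnd2, TMM-type scaling among the latter. The translation factor Eif4e and the cell cycle kinase Cdk4 had log2 fold changes of 1.41 and 1.47 there (limma, adjusted p = 0.0979 and 0.101), and both were at 0.66 with TMM-type scaling. Between tissues after IgG2a the values were -3.03 for Rrs1, a ribosome assembly factor, and 2.07 for Ldha (limma, adjusted p = 0.215 and 0.331), with -1.79 for Rrs1 under library weights.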

How the data were processed

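Per the labels and the study's methods, the authors aligned Smart-Seq2 reads to mm10 with TopHat2 and estimated TPM with RSEM; versions and the annotation were not given in the sources used here. Values were deposited as TPM with 1 added, over 53801 features, and the 1 was taken off. Of its 28 value columns 27 were matched to samples by name and 1 was not used. Read counts were not used here, so the depth is unknown. A gene was tested where its mean TPM in either group compared was over 10, using limma 3.58.1 (R 4.3.3) on log2(TPM + 1), with Benjamini-Hochberg adjustment over all genes tested. A fold change on that scale understates that of low genes. Ratios and single genes were also compared by two-sided exact permutation tests, and correlations by 100000 permutations within groups (Python 3.11.15, scipy 1.17.1). The named genes were the 9 members, and from each pathway list and comparison of 2 groups at most 4 genes, those with the lowest unadjusted p; of these, the ones under 0.05 are given, a limit set after the values were seen. Cell type markers are given as sums. The members and lists were chosen with earlier results of these data known. Alternatives covered the pseudocount, filter, scaling, a covariate for genes detected, library weights, pooled fits, averaging of libraries with the same number, the replicate block and each library left out. The limma fit was tested on simulated data.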

Additional observations from a re-analysis of the deposited data

Results flagged for a closer look

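Of 36 groups of a member's values, 3 held a library whose gap to its nearest neighbor was large for the range of the group on the log2(TPM + 1) scale (Dixon's test at the 95% level), where chance alone would give such a library in about 5% of groups. Oaz2 was low in GBM IgG2a replicate tumor_369_a at 1.65 TPM, and in treated GBM replicate tumor_70_b at 25.41 TPM. Srm was listed at 0 TPM in treated splenic replicate spleen_72_b. On the TPM scale, tried after seeing the data, none of these 3 stood apart and 6 others did, all high. They were Odc1 in treated spleen_73_a at 83.5 TPM and in IgG2a tumor_77_a at 127.68 TPM, Oaz1 in IgG2a spleen_79_b at 1696 TPM, Azin1 and Sat1 in IgG2a tumor_79_a at 76.7 and 150.7 TPM, and Sms in treated tumor_70_b at 34.1 TPM.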

How the results depend on the processing

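No member tested passed an adjusted p of 0.05 in any alternative or with any library left out (limma). Group differences of Odc1 were tested in spleen alone, so Odc1 is not counted where GBM libraries enter. The count of tested members meeting the study's rule (unadjusted p under 0.05, over 2-fold) was 0 as reported. Between tissues after IgG2a it was 2 with quantile normalization (beside 11.7% of all genes), 4 with library weights (16.6%), and 1 each with rescaling without the 10 most abundant features (10.3%), with libraries of the same number averaged (8.83%), and with the replicate block (Myc, -1.79; 9.97%). After αPD1 + αGITR it was 1 each with quantile normalization (27.1%), TMM-type factors (24.0%), library weights (43.1%) and the macrophage-high libraries left out (42.2%), and 0 to 2 with a library left out (33.6 to 45.6%). The causes were not tested. The label numbers shared between tissues left no clear pairing in the expression values. Correlations of deviations ran from -0.16 to 0.18, and 1 of 9 libraries or means correlated best with its own number. Such a check cannot show whether samples of the same number shared an animal.

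Signs changed as follows, with the cause not tested. With treatment in GBM, TMM-type scaling gave -0.55 for Oaz1, -0.46 for Sms, -0.11 for Sat1 and -0.39 for Myc; library weights -0.14 for Oaz1; quantile normalization -0.0755 for Sms; and without the macrophage-high libraries 0.19 for Srm and -0.0886 for Myc. In spleen Odc1 was 0.0739 with the genes-detected covariate, 0.0669 with weights and 0.20 with averaging, and Azin1 -0.33 with a pseudocount of 0.1 and -0.0876 with weights. Between tissues after IgG2a Sms was -0.0448 with quantile normalization and -0.32 with weights. After αPD1 + αGITR Srm was -0.0449 with a pseudocount of 10, -0.29 with quantile normalization, -0.36 with TMM-type factors, -0.00376 with rescaling, -0.23 with the covariate and -0.0083 with weights, and Sat1 -0.17 with TMM-type factors. There the Azin1/Oaz1 ratio was -0.39 with a pseudocount of 10 and Sat1/Srm -0.0463 with 0.1. With TMM-type scaling r with Odc1 was 0.016 for Amd1 and -0.057 for Sms. With libraries left out in turn, values ran in GBM from -0.0604 to 0.39 for Oaz1, -0.32 to 0.17 for Srm and -0.0853 to 0.62 for Sms; in spleen from -0.48 to 0.13 for Odc1, -0.0085 to 0.64 for Oaz1, -0.27 to 0.54 for Azin1 and -0.66 to 0.0505 for Sms; between treated tissues from -0.51 to 0.57 for Srm; and for Azin1/Oaz1 from -0.62 to 0.33 in spleen and -1.13 to 0.22 between tissues after IgG2a. Depth is unknown, and 5 to 8 libraries a group limit the precision.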
